A study of Mus musculus with 12 samples.

Results

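The smooth muscle contractile apparatus is described here through 10 genes of the 38924 in the count tables: the actins Acta2 and Actg2, the myosin heavy chain Myh11, its activating kinase gene Mylk, Cnn1 (calponin), Tagln (transgelin), the tropomyosins Tpm1 and Tpm2, Cald1 (caldesmon) and Des (desmin). They are listed by name, with no measured value in the rule, and all 10 passed the filter on low counts. RNA of sorted cells was sequenced in 12 libraries, 2 for each of 6 groups, all from C57BL/6 mice that carry the ROSAmTmG reporter, in which Cre recombination switches a cell and its descendants to GFP. In the Ucp1-iCre line the groups were mammary myoepithelial cells at lactation day 10, with GFP and without it, and GFP-positive brown adipocytes of 8-week-old females. The Myf5-Cre line gave the same 3 groups. Mammary cells were gated as Lin− CD24+ CD29hi. Ucp1 is a marker gene of brown adipocytes, and Myf5 is active in precursors of skeletal muscle and brown fat. GFP records past driver activity, not the present cell type, and the brown adipocytes have no GFP-negative group. The libraries are given as separate samples without a statement that each came from its own animal, so p-values measure the spread between these libraries, which may be technical.

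Contraction in smooth muscle and in myoepithelial cells runs on thin filaments of actin and thick filaments of myosin. Myosin light chain kinase switches the motor on, while tropomyosin, caldesmon and calponin sit on the thin filament and tune its access to myosin. Myoepithelial cells surround the mammary alveoli and squeeze milk into the ducts during lactation. Many of these genes are targets of serum response factor, which binds a DNA element named the CArG box.

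Acta2 had the highest group mean per length of the members in all 4 mammary groups. Des was the member whose label effect differed between the lines. Promoter sequences of these 2 members frame the results. Both are from RefSeq (GRCm38.p6), 250 bases before to 50 bases after the annotated start, written 5′ to 3′ on the gene's strand. The Acta2 window is chr19:34255324-34255623 on the minus strand, at a start inside the longer gene of the count annotation (chr19:34241090-34255590), and the Des window is chr1:75360042-75360341 on the plus strand. Capitals mark CArG boxes with at most 1 G or C among the 6 inner bases.
Acta2: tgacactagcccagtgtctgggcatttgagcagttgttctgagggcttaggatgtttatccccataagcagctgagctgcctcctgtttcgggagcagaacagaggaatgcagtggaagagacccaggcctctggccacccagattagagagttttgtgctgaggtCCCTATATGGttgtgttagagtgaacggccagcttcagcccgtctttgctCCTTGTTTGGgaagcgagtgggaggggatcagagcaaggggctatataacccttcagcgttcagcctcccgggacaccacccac
Des: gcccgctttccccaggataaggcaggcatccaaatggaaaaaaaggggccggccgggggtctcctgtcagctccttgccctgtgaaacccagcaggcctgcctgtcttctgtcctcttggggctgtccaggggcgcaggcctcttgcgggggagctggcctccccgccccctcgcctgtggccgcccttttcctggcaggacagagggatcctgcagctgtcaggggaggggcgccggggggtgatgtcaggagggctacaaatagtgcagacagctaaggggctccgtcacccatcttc

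The Acta2 window held 2 matches, beginning at positions −84 and −34 from the start. A CArG box is read the same on both strands, and 9.98% of 32851 promoters of this length held such a match. Of the 7 members with a RefSeq promoter entry, the other 6 (Mylk, Cnn1, Tpm1, Tpm2, Cald1 and Des) held none, which says only that these letters are not in those windows. Actg2, Myh11 and Tagln had no entry. On mm10, with GENCODE M21 gene bounds, Actg2 lies at chr6:83512905-83536265, Myh11 at chr16:14194535-14291372, Mylk at chr16:34745210-35002420, Cnn1 at chr9:22099216-22109630 and Tagln at chr9:45929619-45936058. Tpm1 lies at chr9:67022590-67049406, Tpm2 at chr4:43514711-43523765, Cald1 at chr6:34598500-34775473 and Des at chr1:75360329-75368579. All are protein-coding.

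Library totals ran from 11027738 to 32956480 counts. Fewest genes had a count in the 2 Ucp1 GFP-positive myoepithelial libraries, 10909 and 10560 in a series range of 10560 to 19794. Their log2(CPM + 1) levels correlated at r = 0.731, against 0.879 to 0.990 within the other groups. In Ucp1 GFP-negative cells 2444 protein-coding genes were at 50 to 150 CPM (each count over its library total, TMM-scaled). Of these, 6 (0.245%) were at 0 in both Ucp1 GFP-positive libraries, 42 (1.72%) in replicate 1 and 51 (2.09%) in replicate 2. The basal keratin gene Krt5 had 71.1 and 107 CPM in Ucp1 GFP-positive and 312 and 344 CPM in Ucp1 GFP-negative myoepithelial libraries. Krt5 in the Myf5 line had 10.0 and 31.6 CPM in GFP-positive and 179 and 657 CPM in GFP-negative libraries, and it was at 0 in all 4 brown adipocyte libraries. The summed fibroblast markers reached 12913 to 21915 CPM in the Myf5 GFP-positive myoepithelial libraries, against 1045 to 1741 CPM in the Myf5 GFP-negative ones. The myoepithelial label of that group is thus not matched by its marker levels. Other mammary groups held markers of other cells too. Endothelial markers summed to 5964 to 8566 CPM in Ucp1 GFP-positive libraries, against 1209 to 1214 CPM for basal epithelial markers. These sums were 5355 to 5455 and 2626 to 2735 CPM in Ucp1 GFP-negative libraries. In Myf5 GFP-negative libraries they were 3890 to 4262 and 2768 to 5305 CPM. Ucp1, the brown adipocyte uncoupling protein, had 950 and 3312 CPM in Ucp1 brown adipocytes and 12573 and 16436 CPM in Myf5 brown adipocytes, and 0 in all GFP-positive myoepithelial libraries.

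**Figure D1:**
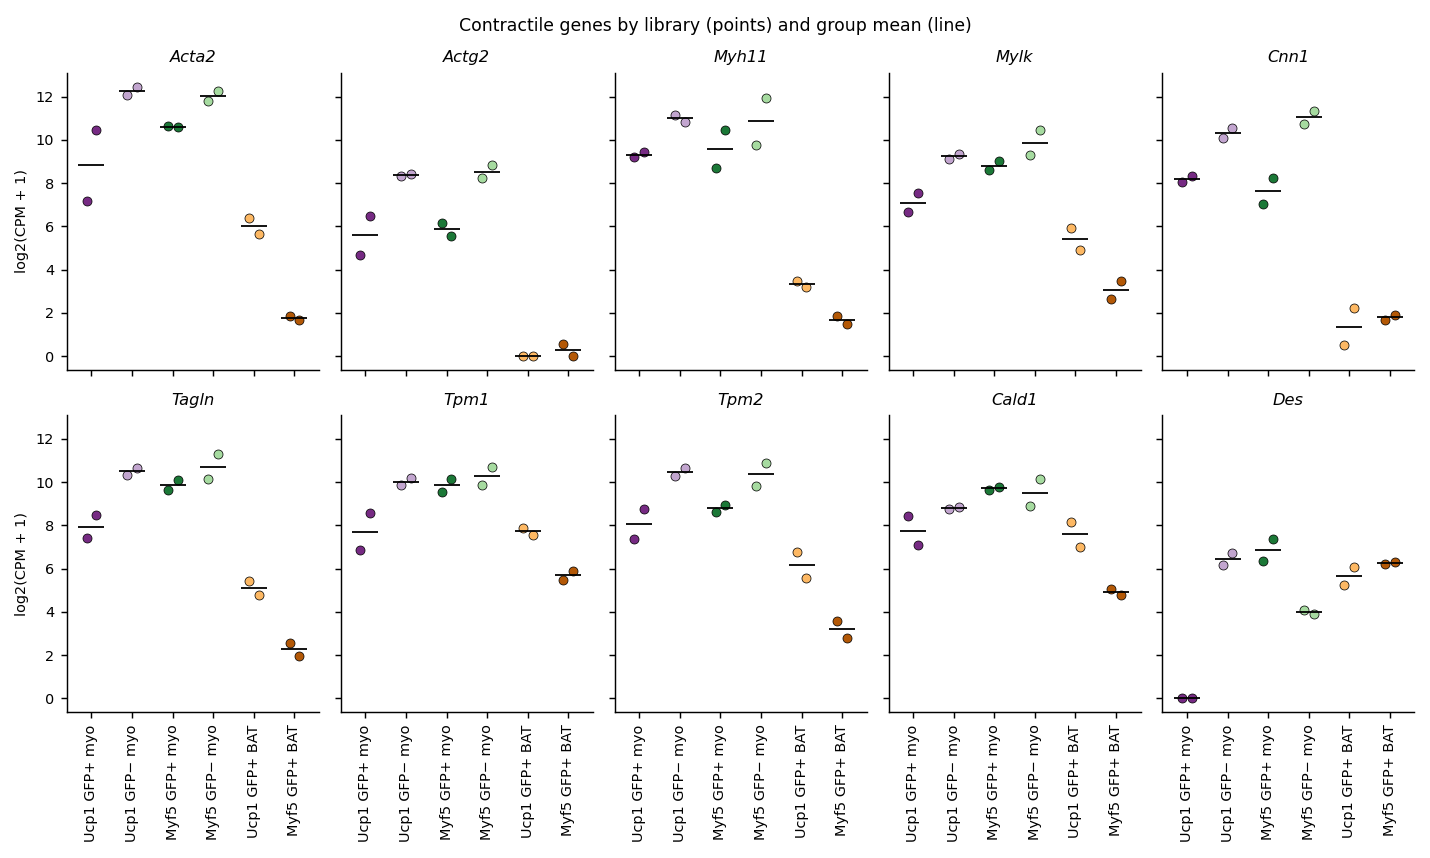
Each panel plots 1 contractile gene as log2(CPM + 1) on the vertical axis, with a point per library and a line at the group mean, for the 6 groups along the horizontal axis (myo, myoepithelial cells; BAT, brown adipocytes). Apart from Tpm1, Cald1 and Des, each member is higher in every mammary library than in every brown adipocyte library. Des is at 0 in both Ucp1 GFP-positive myoepithelial libraries.

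The label comparison asks whether mammary cells with a history of Ucp1-iCre or Myf5-Cre activity carry as much contractile mRNA as their unlabelled neighbours. In the Ucp1 line 5 of the 10 genes were lower in GFP-positive cells at an edgeR adjusted p under 0.05: Mylk, Tagln, Tpm1, Tpm2 and Des. All 10 lay lower without overlap. Lower calls made up 14% of the 16953 genes tested and genes lower without overlap made up 48.1%. The members' median log2 fold change was −2.21, against −0.69 over all genes. In the Myf5 line none of the 10 passed, as none of all genes did (0%). Of the members 4 had an unadjusted p under 0.05 in that line, where 9.28% of all genes did, and DESeq2 called 2 members, Cnn1 and Des, among 724 genes in all. Lower without overlap in the Myf5 line were 6 members (20.2% of all genes) and higher was 1, Des (14.5%), with a median of −1.29 over the members and −0.06 over all genes.

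The actins of the thin filament were the first set. Acta2, alpha smooth muscle actin, had 145 and 1384 CPM in the Ucp1 GFP-positive libraries, against 4291 and 5610 CPM in the Ucp1 GFP-negative ones. Myf5-line Acta2 stood at 1578 and 1547 CPM in GFP-positive and 3597 and 4828 CPM in GFP-negative libraries. All 4 GFP-positive libraries lay below all 4 GFP-negative ones, and the 2 Ucp1 GFP-positive libraries differed 9.54-fold, the widest replicate gap of any member in the mammary groups. The log2 fold change of Acta2 was −2.69 ± 0.84 (SE) in the Ucp1 line, with an edgeR adjusted p of 0.0625, and −1.43 ± 0.81 in the Myf5 line, with an edgeR adjusted p of 0.688. With each library of the Ucp1 comparison left out in turn, it ran from −5.11 (without GFP-positive replicate 2, edgeR adjusted p = 0.00102) to −1.85 (without GFP-positive replicate 1, edgeR adjusted p = 0.062). In such fits the remaining library of a group is assumed to vary like the other groups.

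Actg2, gamma smooth muscle (enteric) actin, had 24.8 and 88.5 CPM in Ucp1 GFP-positive and 316 and 342 CPM in Ucp1 GFP-negative libraries. Its Myf5 levels were 71.4 and 46.0 CPM in GFP-positive and 296 and 457 CPM in GFP-negative libraries. The labelled libraries lay below the unlabelled ones in both lines, with log2 fold changes of −2.54 ± 0.89 in the Ucp1 line (edgeR adjusted p = 0.0938) and −2.68 ± 0.90 in the Myf5 line (edgeR adjusted p = 0.375). The difference of the 2 effects, Ucp1 minus Myf5, was 0.14 ± 1.19, and it ran from −1.06 to 0.78 with 1 library left out.

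Myh11, the smooth muscle myosin heavy chain that forms the thick filament, had 596 and 682 CPM in Ucp1 GFP-positive and 2285 and 1810 CPM in Ucp1 GFP-negative libraries. Myf5-line Myh11 stood at 418 and 1389 CPM in GFP-positive and 865 and 3933 CPM in GFP-negative libraries, which overlap. Its log2 fold change was −1.68 ± 0.73 in the Ucp1 line (edgeR adjusted p = 0.153) and −1.41 ± 0.73 in the Myf5 line (edgeR adjusted p = 0.626). Mylk, the light chain kinase that starts contraction, had 99.2 and 185 CPM in Ucp1 GFP-positive and 561 and 651 CPM in Ucp1 GFP-negative libraries. It fell in the Ucp1 line with a log2 fold change of −2.09 ± 0.59 (edgeR adjusted p = 0.0451). Mylk in the Myf5 line had 388 and 512 CPM in GFP-positive and 628 and 1389 CPM in GFP-negative libraries, a log2 fold change of −1.16 ± 0.58 that did not pass (edgeR adjusted p = 0.609).

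Cnn1, which binds actin and slows the myosin motor, had 262 and 318 CPM in Ucp1 GFP-positive and 1093 and 1475 CPM in Ucp1 GFP-negative libraries. Its levels in the Myf5 line were 129 and 304 CPM in GFP-positive and 1697 and 2597 CPM in GFP-negative libraries. The groups were apart in both lines, and Cnn1 had the lowest fitted value of the members in the Myf5 line, −3.31 ± 0.81 (unadjusted p = 0.00253, edgeR adjusted p = 0.289), beside −2.15 ± 0.78 in the Ucp1 line (edgeR adjusted p = 0.0952). Tagln, an actin-bundling calponin relative, had 170 and 352 CPM in Ucp1 GFP-positive and 1283 and 1628 CPM in Ucp1 GFP-negative libraries. It fell by 2.48 ± 0.58 on the log2 scale in the Ucp1 line, with an edgeR adjusted p of 0.0205. Tagln in the Myf5 line had 789 and 1090 CPM in GFP-positive and 1125 and 2495 CPM in GFP-negative libraries, a log2 fold change of −0.95 ± 0.55 (edgeR adjusted p = 0.705).

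Tpm1 and Tpm2 encode tropomyosins, which lie along the actin filament. Tpm1 had 115 and 374 CPM in Ucp1 GFP-positive and 916 and 1150 CPM in Ucp1 GFP-negative libraries, and it fell with a log2 fold change of −2.08 ± 0.59 (edgeR adjusted p = 0.0453). Its Myf5 libraries overlapped, with 749 and 1134 CPM in GFP-positive and 922 and 1673 CPM in GFP-negative cells, a log2 fold change of −0.46 ± 0.57. Tpm2 had 163 and 430 CPM in Ucp1 GFP-positive and 1244 and 1605 CPM in Ucp1 GFP-negative libraries, and it fell with a log2 fold change of −2.27 ± 0.66 (edgeR adjusted p = 0.0484). Tpm2 in the Myf5 line had 393 and 490 CPM in GFP-positive and 903 and 1901 CPM in GFP-negative libraries, which are apart, with a log2 fold change of −1.67 ± 0.64 (edgeR adjusted p = 0.446). Cald1, which links actin to myosin and tropomyosin, had the log2 fold changes closest to 0, −0.91 ± 0.59 in the Ucp1 line (edgeR adjusted p = 0.343) and 0.07 ± 0.58 in the Myf5 line (edgeR adjusted p = 1). It had 339 and 136 CPM in Ucp1 GFP-positive and 433 and 460 CPM in Ucp1 GFP-negative libraries, and 802 and 867 CPM in Myf5 GFP-positive and 480 and 1116 CPM in Myf5 GFP-negative libraries.

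Des encodes desmin, the intermediate filament of muscle, which ties contractile units to each other and to the membrane. It was at 0 counts in both Ucp1 GFP-positive myoepithelial libraries, against 71.3 and 104 CPM in Ucp1 GFP-negative ones. As the limit of a count of 0, 3 counts pooled over the 2 empty libraries were taken. By this floor, which covers counting error only, Des was at least 2002-fold lower in the labelled cells (edgeR adjusted p = 0.00117). In the Myf5 line it lay the other way, with 81.5 and 163 CPM in GFP-positive and 15.8 and 14.0 CPM in GFP-negative libraries. That log2 fold change of 3.03 ± 0.58 had an unadjusted p of 0.000679 and an edgeR adjusted p of 0.231, and it passed without the Ucp1 GFP-positive libraries in the fit (edgeR adjusted p = 0.0317).

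The test of the difference between the label effects, Ucp1 minus Myf5, called 1 of the 10 genes, Des, lower in the Ucp1 line (edgeR adjusted p = 0.00198), where 10.7% of all genes were called lower. For the other 9 the difference ran from −1.62 ± 0.81 for Tpm1 (edgeR adjusted p = 0.266) to 1.16 ± 1.05 for Cnn1 (edgeR adjusted p = 0.626). The median difference was −0.95 over the members and −0.58 over all genes. Without Ucp1 GFP-positive replicate 2 the difference also passed for Acta2 (−3.67, edgeR adjusted p = 0.00883) and Tpm1 (−2.72, edgeR adjusted p = 0.0339), with the remaining library assumed to vary like the other groups. Over all fits with 1 library left out, the difference ran from −3.67 to −0.42 for Acta2 and from −2.72 to −1.01 for Tpm1.

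**Figure D2:**
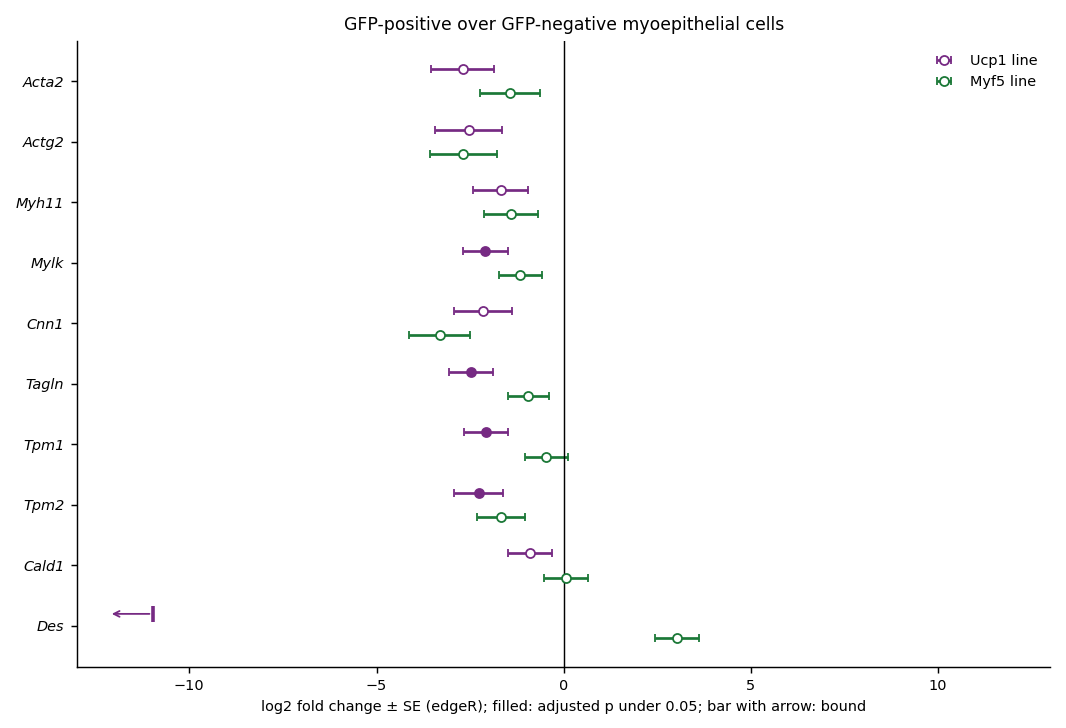
Points are log2 fold changes of GFP-positive over GFP-negative myoepithelial cells with SE bars (edgeR), for the Ucp1 line and the Myf5 line, filled where the adjusted p is under 0.05. The Ucp1 Des value is drawn as a bound of −10.97 with an arrow, while the Myf5 Des point stands at 3.03.

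In the Ucp1 line the number of members called changed with single libraries and with the method. Without Ucp1 GFP-positive replicate 1, or without either Ucp1 GFP-negative library, only Des of the 10 members was called. Without Ucp1 GFP-positive replicate 2, 7 members were. The genes called among all tested ran from 1293 to 4165 over these 4 fits. DESeq2 called 7 members, the 5 with Acta2 (adjusted p = 0.0179) and Actg2 (adjusted p = 0.0286), among 4152 genes in all. With RLE factors in edgeR, Tagln and Des were called and the other 3 were not, while all 10 log2 values stayed below 0. Markers of other cells moved with the label as well, in a Ucp1 comparison where 14% of all genes were called lower. In GFP-positive cells of the Ucp1 line the summed basal epithelial markers were 1209 to 1214 CPM, against 2626 to 2735 CPM in GFP-negative cells, and 11 of 12 markers had log2 values below 0. The basal sum in the Myf5 line was 216 to 505 CPM in GFP-positive and 2768 to 5305 CPM in GFP-negative cells, with 12 of 12 below 0. With the Ucp1 label the fibroblast markers lay below 0 in 12 of 12, of which 5 were called, and summed to 570 to 993 CPM in GFP-positive and 3913 to 4360 CPM in GFP-negative cells. The immune markers lay below 0 in 9 of 9, of which 3 were called, with sums of 513 to 631 CPM in GFP-positive and 1278 to 1379 CPM in GFP-negative cells. Ptprc, the pan-leukocyte marker, was at 0 in both GFP-positive libraries. Milk genes were called lower in 4 of 9, with sums of 21617 to 25338 CPM in GFP-positive and 105105 to 118242 CPM in GFP-negative cells. Endothelial markers lay above 0 in 7 of 9 and none was called, at 5964 to 8566 CPM in GFP-positive and 5355 to 5455 CPM in GFP-negative cells. With the Myf5 label no marker of these lists was called, and the fibroblast markers lay above 0 in 12 of 12 and the endothelial ones below 0 in 9 of 9. The part of these markers in the members' results was not tested. In bulk RNA a smaller share of contractile cells and less contractile mRNA per cell cannot be told apart.

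The members other than Mylk and Cald1 were set against relatives in their gene families. The share that a member gene takes in its family is a ratio within each library. Counts are by gene, so isoforms of the same gene were not told apart. Per kb of exon, Acta2 and Actg2 together made up 9.22% and 38.6% of actin mRNA in Ucp1 GFP-positive libraries, against 57.8% and 59.1% in Ucp1 GFP-negative ones. The Myf5-line actin share was 25.6% and 41.0% in GFP-positive and 41.6% and 65.9% in GFP-negative libraries, so the labelled libraries were lower in both lines. Cnn1 took 29.9% and 37.0% of calponin mRNA in Ucp1 GFP-positive and 61.6% and 65.6% in Ucp1 GFP-negative libraries. Its Myf5-line share was 16.8% and 27.3% in GFP-positive and 67.0% and 77.7% in GFP-negative libraries. The calponin groups did not overlap in either line.

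The myosin share was taken among Myh11, Myh9 and Myh10, with other heavy chain genes left out. Of their mRNA per kb, Myh11 made up most in every mammary library. It took 75.5% and 71.0% in Ucp1 GFP-positive and 91.4% and 90.1% in Ucp1 GFP-negative cells. Its share was 81.7% and 91.9% in Myf5 GFP-positive and 88.6% and 95.2% in Myf5 GFP-negative cells. Tpm1 and Tpm2 together took 17.0% and 28.0% of tropomyosin mRNA in Ucp1 GFP-positive libraries, against 58.6% and 64.1% in Ucp1 GFP-negative ones. Among the 12 listed non-muscle relatives none passed in either label comparison. With the Ucp1 label 10 of the 12 had log2 values below 0 and 2 above. Without overlap, 6 lay lower (48.1% of all genes) and 2 higher (11.8%). With the Myf5 label 9 were below 0 and 3 above. Over brown adipocytes 4 were higher in Ucp1 GFP-positive (5.34% of all genes), 11 in Myf5 GFP-positive (10.9%) and 9 in GFP-negative myoepithelial cells (14.6%). Actg1, cytoplasmic gamma actin, had 1749 and 2173 CPM in Ucp1 GFP-positive and 2873 and 3271 CPM in Ucp1 GFP-negative libraries. Tpm3, a cytoplasmic tropomyosin, had 992 and 1238 CPM in Ucp1 GFP-positive and 715 and 677 CPM in Ucp1 GFP-negative libraries.

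**Figure D3:**
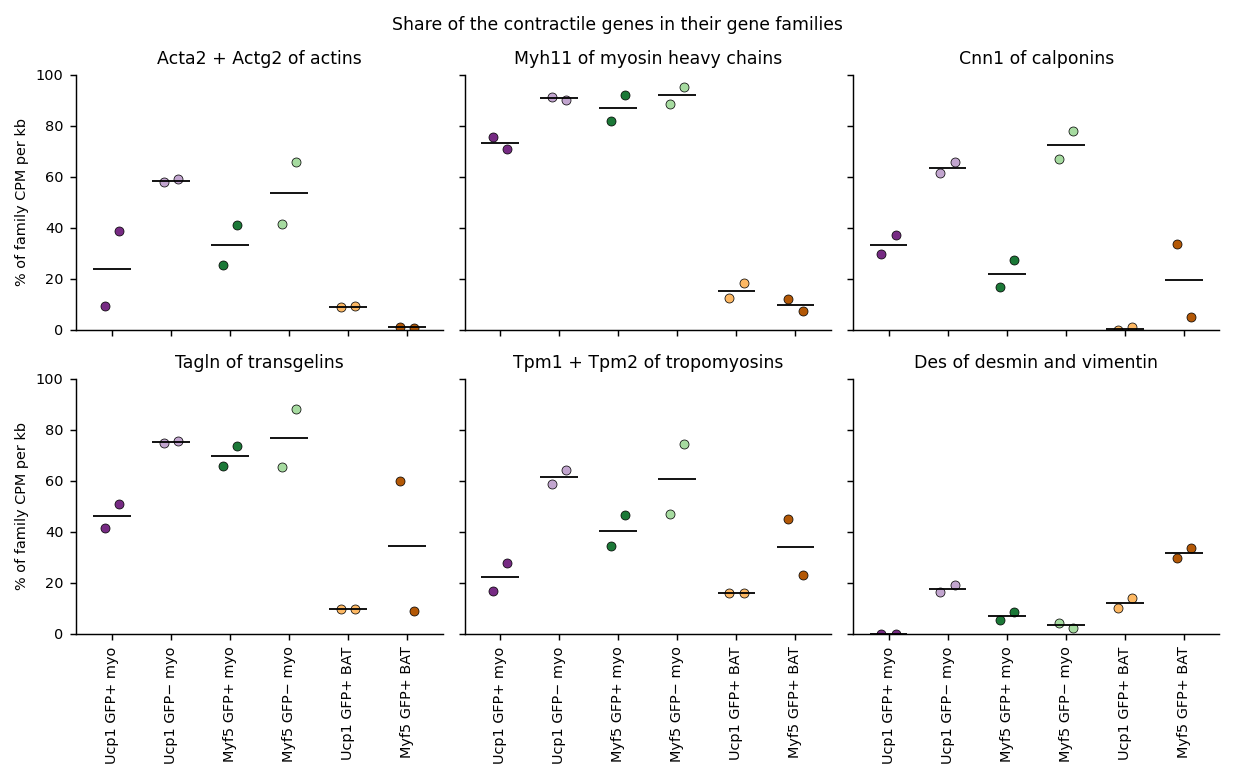
Each panel gives the percent of a family's CPM per kb held by its listed contractile genes. A point is drawn per library and a line at the group mean, for the 6 groups. The myosin family here is Myh11, Myh9 and Myh10, and the transgelin family is Tagln and Tagln2. Acta2 with Actg2, Cnn1, and Tpm1 with Tpm2 take smaller shares in labelled than in unlabelled myoepithelial libraries of the same line. The Myh11, Tagln and Des shares are smaller with the label in the Ucp1 line only. In the Myf5 line the Myh11 and Tagln shares overlap and the Des share is larger with the label.

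Per length, the order of the genes by group mean was alike across mammary groups at the top. Acta2 ranked first, at a mean of 348 CPM per kb in Ucp1 GFP-positive, 2254 in Ucp1 GFP-negative, 711 in Myf5 GFP-positive and 1918 in Myf5 GFP-negative cells. Tagln ranked second, at 132 CPM per kb in Ucp1 GFP-positive, 732 in Ucp1 GFP-negative, 473 in Myf5 GFP-positive and 910 in Myf5 GFP-negative cells. Des ranked last of the 10 in each. Single libraries departed from the order of the means. In Ucp1 GFP-positive replicate 1, Acta2 had 66.1 CPM per kb, below Cnn1 (95.7), Tagln (85.7) and Myh11 (78.4). Acta2 had 630 CPM per kb in replicate 2 of that group. Tagln (566) lay below Cnn1 (620) in Myf5 GFP-negative replicate 1, and Actg2 (29.5) below Des (43.5) in Myf5 GFP-positive replicate 2. In brown adipocytes the order of the means differed, with Tpm1 first in the Ucp1 line (32.7 CPM per kb) and Des first in the Myf5 line (20.2 CPM per kb). In Ucp1 brown adipocyte replicate 1, Acta2 (38.0) and Tpm2 (37.5) lay above Tpm1 (36.5).

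The comparison with brown adipocytes sets GFP-positive myoepithelial cells, so named by their label, against GFP-positive brown adipocytes of the same line. In the Ucp1 line 5 members were higher in myoepithelial cells, namely Acta2, Actg2, Myh11, Cnn1 and Tagln (5.34% of all genes were called higher), and Des was lower (22.5%). Without overlap, 7 lay higher (16.6%) and 1 lower (41.1%). In the Myf5 line 9 were higher, all but Des (10.9% of all genes), and all 10 lay higher without overlap (33.1%). In GFP-negative myoepithelial cells over brown adipocytes, with both lines averaged, 9 members, again all but Des, were called higher (14.6%) and lay higher without overlap (19.4%). The members' median log2 fold change was 2.43 in the Ucp1 line (−0.69 over all genes), 6.15 in the Myf5 line (0.14 over all genes) and 6.45 for GFP-negative cells (0.35 over all genes). The GFP-negative comparison shares its brown adipocyte libraries with each of the other 2, which share none with each other. Fitted on the 4 Ucp1 libraries alone, no gene passed in the Ucp1 comparison.

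Acta2 had 83.4 and 48.9 CPM in Ucp1 brown adipocytes and 2.69 and 2.20 CPM in Myf5 brown adipocytes, below every mammary library. Its log2 fold change in GFP-positive myoepithelial cells was 3.53 ± 0.88 in the Ucp1 line (edgeR adjusted p = 0.0176) and 9.32 ± 1.15 in the Myf5 line (edgeR adjusted p = 0.00129). The Ucp1 value was 1.13 without Ucp1 GFP-positive replicate 2, where it did not pass. Actg2 was at 0 counts in both Ucp1 brown adipocyte libraries and at 4 and 0 counts in the Myf5 ones. By the counting floor alone, it was at least 402-fold higher in Ucp1 GFP-positive myoepithelial cells than in Ucp1 brown adipocytes (edgeR adjusted p = 0.00159). Its Myf5 log2 fold change was 8.01 ± 1.22 (edgeR adjusted p = 0.00395).

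Myh11 had 10.1 and 8.25 CPM in Ucp1 and 2.69 and 1.83 CPM in Myf5 brown adipocytes. It was higher in GFP-positive myoepithelial cells by a log2 fold change of 6.12 ± 0.89 in the Ucp1 line (edgeR adjusted p = 0.00169) and 8.65 ± 1.0 in the Myf5 line (edgeR adjusted p = 0.00112). Cnn1 was low in brown adipocytes, at 0.420 and 3.66 CPM in the Ucp1 line and 2.20 and 2.75 CPM in the Myf5 line. Its log2 fold change was 7.13 ± 0.98 in the Ucp1 line (edgeR adjusted p = 0.00139) and 6.44 ± 0.95 in the Myf5 line (edgeR adjusted p = 0.00266), so Myh11 and Cnn1 stood far above brown adipocytes in both lines. Tagln was higher by 2.92 ± 0.59 on the log2 scale in the Ucp1 line (edgeR adjusted p = 0.00733) and by 7.91 ± 0.74 in the Myf5 line (edgeR adjusted p = 0.000701).

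Tpm1 and Cald1, which many non-muscle cells also use, had the smallest differences in the Ucp1 line. Tpm1 had 236 and 187 CPM in Ucp1 brown adipocytes, inside the range of the Ucp1 GFP-positive myoepithelial libraries, and its log2 fold change was 0.21 ± 0.57 (edgeR adjusted p = 0.843). Cald1 had 284 and 128 CPM in Ucp1 brown adipocytes, with a log2 fold change of 0.20 ± 0.58 (edgeR adjusted p = 0.851). In the Myf5 line, where brown adipocytes had 43.9 and 57.7 CPM of Tpm1 and 32.8 and 26.3 CPM of Cald1, both genes were higher in GFP-positive myoepithelial cells, Tpm1 by 4.21 ± 0.65 on the log2 scale (edgeR adjusted p = 0.00315) and Cald1 by 4.82 ± 0.68 (edgeR adjusted p = 0.00229). In the Ucp1 line Mylk (1.68 ± 0.59, edgeR adjusted p = 0.0591) and Tpm2 (1.94 ± 0.65, edgeR adjusted p = 0.0516) missed the threshold.

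Des had 37.2 and 67.0 CPM in Ucp1 and 72.5 and 79.2 CPM in Myf5 brown adipocytes. By the counting floor alone, Des was therefore at least 1188-fold lower in Ucp1 GFP-positive myoepithelial cells than in Ucp1 brown adipocytes (edgeR adjusted p = 0.000637). The Myf5 GFP-positive cells differed from Myf5 brown adipocytes by 0.69 ± 0.54 (edgeR adjusted p = 0.401). Over both lines, GFP-negative myoepithelial cells differed from brown adipocytes in Des by −0.79 ± 0.38 (edgeR adjusted p = 0.164). The 19 listed striated muscle markers summed to 39.8 to 278 CPM in Ucp1 and 58.2 to 125 CPM in Myf5 brown adipocytes, and their part in the Des level there was not tested.

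**Figure D4:**
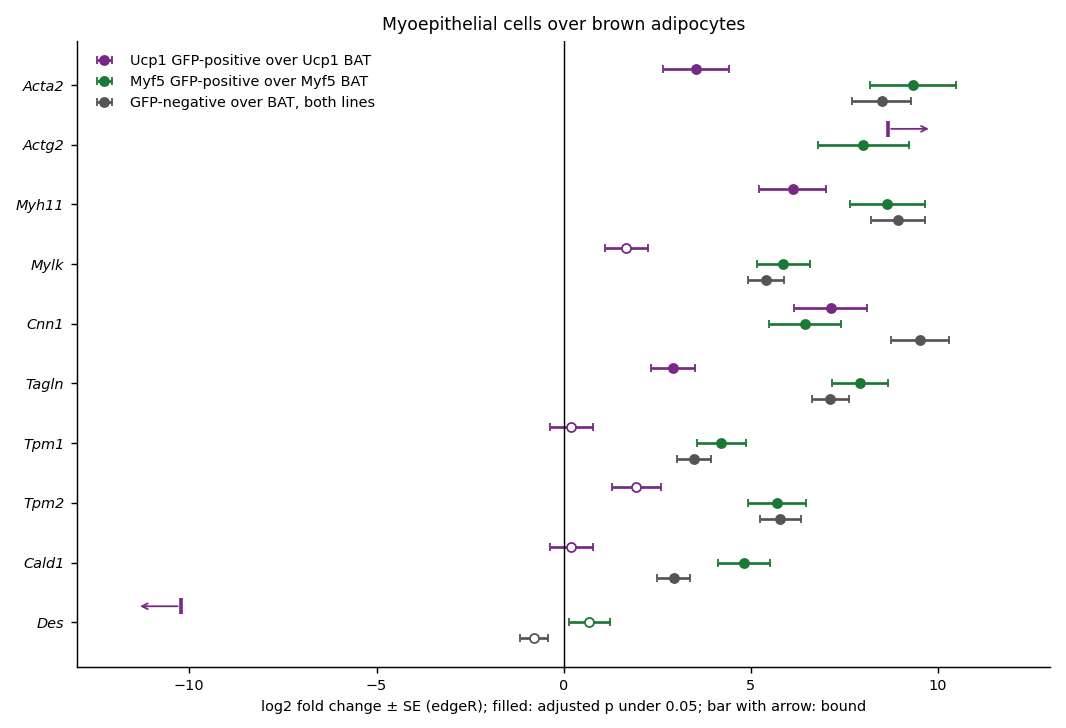
Points are log2 fold changes of myoepithelial cells over brown adipocytes (BAT) with SE bars (edgeR), filled where the adjusted p is under 0.05; bars with arrows are bounds from groups at 0 counts. The Ucp1 points lie left of the Myf5 points for most genes, and Actg2 is not drawn for the GFP-negative comparison because the Ucp1 brown adipocytes hold no count.

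Between the lines, GFP-negative myoepithelial cells gave no call among the members, nor in any gene (0%), with edgeR. At an unadjusted p under 0.05, 1 member, Des, was higher in the Ucp1 line (2.55 ± 0.57, with 71.3 and 104 CPM in Ucp1 and 15.8 and 14.0 CPM in Myf5 libraries), where 3.56% of all genes had such a p, and DESeq2 called 43 genes, Des among them. The pericyte markers lay above 0 in 13 of 13 there, with sums of 2055 to 2142 CPM in Ucp1 and 600 to 938 CPM in Myf5 libraries, and the fibroblast markers in 12 of 12, with sums of 3913 to 4360 CPM in Ucp1 and 1045 to 1741 CPM in Myf5 libraries. Their part in the Des value was not tested. In brown adipocytes 2 members were higher in the Ucp1 line than in the Myf5 line, Acta2 (4.76 ± 0.94, edgeR adjusted p = 0.0483) and Tagln (3.14 ± 0.60, edgeR adjusted p = 0.0435), where 1.29% of all genes were called higher. Higher without overlap were 7 of the 10 (31.3% of all genes). The median was 2.29 over the members and 0.00 over all genes. Neither call held with RLE factors or when any 1 of the 4 brown adipocyte libraries was left out. Of the pericyte markers, Vtn (edgeR adjusted p = 0.026), Abcc9 (edgeR adjusted p = 0.026) and Rgs4 (edgeR adjusted p = 0.0354) were also higher in Ucp1 brown adipocytes. The summed pericyte markers were 518 to 843 CPM in Ucp1 and 130 CPM in each of the Myf5 brown adipocyte libraries, with none of the 13 at 0 in both libraries of either line. The summed endothelial markers were 2113 to 3993 CPM in Ucp1 and 128 to 514 CPM in Myf5 brown adipocytes, 9 of 9 above 0 and none called. The part of these markers in the Acta2 and Tagln difference was not tested.

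Other contractile and cytoskeletal genes were read from a list of 20. In the Ucp1 label comparison 1 of them fell, Pln (phospholamban, an inhibitor of the calcium pump that refills muscle stores), and none rose. Of all genes 14% were called lower there. In the Myf5 label comparison none passed. Lmod1, leiomodin, which nucleates smooth muscle actin filaments, had 0 and 4.59 CPM in Ucp1 GFP-positive and 34.4 and 41.0 CPM in Ucp1 GFP-negative libraries (edgeR adjusted p = 0.122), and it was 102 and 44.9 CPM in Myf5 GFP-positive and 79.3 and 115 CPM in Myf5 GFP-negative libraries. Over brown adipocytes, 5 of the 20 were higher (5.34% of all genes) and 1 lower (22.5%) in Ucp1 GFP-positive cells. In Myf5 GFP-positive cells 9 were higher (10.9%), and in GFP-negative cells 14 were higher (14.6%). Csrp1, an actin-bundling LIM protein gene, was higher in each, with log2 fold changes of 3.09 ± 0.62 in the Ucp1 line (edgeR adjusted p = 0.00697), 5.52 ± 0.69 in the Myf5 line (edgeR adjusted p = 0.0014) and 5.79 ± 0.50 in GFP-negative cells (edgeR adjusted p = 0.000156).

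Pln had a pattern like that of Des, at a lower level. The share of all genes at the level of Pln with 0 in both Ucp1 GFP-positive libraries was not counted. Pln was at 0 counts in both Ucp1 GFP-positive libraries, against 5.86 and 5.01 CPM in Ucp1 GFP-negative ones. By the counting floor alone, it was at least 124-fold lower (edgeR adjusted p = 0.00308). Myf5-line Pln had 16.9 and 11.1 CPM in GFP-positive and 1.95 and 1.54 CPM in GFP-negative libraries. The difference between the label effects passed for Pln (edgeR adjusted p = 0.00329).

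Of the 10 listed serum response factor partners and modulators, 9 were tested and 3 fell with the Ucp1 label. Lower calls made up 14% of all genes. The 3 were Gata6, a transcription factor of vascular smooth muscle, Elk1, which competes with myocardin for serum response factor, and Myocd, myocardin itself. Of the 9, 2 had log2 values above 0 and 7 below. The 10 genes summed to 363 to 601 CPM in Ucp1 GFP-positive and 322 to 356 CPM in Ucp1 GFP-negative libraries. The 3 called genes were low in both groups. The share of all genes at such levels with 0 in both GFP-positive libraries was not counted. Gata6 was at 0 in both Ucp1 GFP-positive libraries, against 7.76 and 4.28 CPM in Ucp1 GFP-negative ones. It was at least 137-fold lower by the counting floor alone (edgeR adjusted p = 0.00465). Elk1 had 0 and 0.0728 CPM in Ucp1 GFP-positive and 10.5 and 11.5 CPM in Ucp1 GFP-negative libraries (edgeR adjusted p = 0.00785). Myocd was at 0 in both Ucp1 GFP-positive libraries, against 3.16 and 1.83 CPM in Ucp1 GFP-negative libraries. By the same floor it was at least 56.9-fold lower (edgeR adjusted p = 0.045). All 3 differed between the lines as well (edgeR adjusted p = 0.00383 for Gata6, 0.0171 for Elk1 and 0.0317 for Myocd). Gata6 in the Myf5 line had 25.2 and 44.8 CPM in GFP-positive and 0.621 and 4.45 CPM in GFP-negative libraries. Srf, serum response factor itself, had 60.2 and 19.0 CPM in Ucp1 GFP-positive and 64.2 and 71.1 CPM in Ucp1 GFP-negative libraries and was not called. Klf4, a repressor of smooth muscle genes, was higher in Myf5 GFP-positive myoepithelial cells than in Myf5 brown adipocytes, by 5.33 ± 0.84 on the log2 scale (edgeR adjusted p = 0.00341).

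Pericytes and vascular smooth muscle share these contractile genes, and 13 pericyte markers were read beside them. None passed in either label comparison, though all 13 log2 values were above 0 in the Myf5 line and 12 of 13 were below 0 in the Ucp1 line. Their sum was 956 to 1159 CPM in Ucp1 GFP-positive and 2055 to 2142 CPM in Ucp1 GFP-negative libraries, and 3553 to 4010 CPM in Myf5 GFP-positive and 600 to 938 CPM in Myf5 GFP-negative libraries. The difference between the label effects passed for 4 of them, Vtn (−4.47 ± 0.88, edgeR adjusted p = 0.0104), Rgs4 (−5.17 ± 1.15, edgeR adjusted p = 0.0184), Notch3 (edgeR adjusted p = 0.0268) and Ndufa4l2 (−4.01 ± 1.11, edgeR adjusted p = 0.0477). Vim, vimentin, differed too (−2.42 ± 0.57, edgeR adjusted p = 0.0232), with 405 and 269 CPM in Ucp1 GFP-positive, 462 and 559 CPM in Ucp1 GFP-negative, 1831 and 2151 CPM in Myf5 GFP-positive and 433 and 691 CPM in Myf5 GFP-negative libraries. Of the 12 fibroblast markers, 12 had a difference below 0 and 7 were called, where 10.7% of all genes were called lower. The part of these genes in the Des difference was not tested.

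Striated muscle also makes desmin. Of 19 striated markers 16 were tested, and 4 fell with the Ucp1 label (14% of all genes), Myl1, Actn2, Mylpf and Myh2. The label effects of Myl1 and Myh1 differed between the lines. Myl1, a fast skeletal light chain, was at 0 in both Ucp1 GFP-positive libraries, against 2.19 and 2.54 CPM in Ucp1 GFP-negative ones, and had 33.9 and 18.4 CPM in Myf5 GFP-positive and 2.75 and 0.405 CPM in Myf5 GFP-negative libraries. The striated sum was 12.9 to 22.1 CPM in Ucp1 GFP-positive libraries, where 14 of 19 markers were at 0 in both, against 48.9 to 56.2 CPM in Ucp1 GFP-negative ones. Ucp1 GFP-positive libraries had a count in 10909 and 10560 genes in all, against 19794 and 19213 in Ucp1 GFP-negative ones. The share of all genes at the markers' levels that were empty in both was not counted. It was 48.8 to 107 CPM in Myf5 GFP-positive and 21.8 to 32.1 CPM in Myf5 GFP-negative libraries. The striated sum thus lay on the same side as Des in both lines, and its part in the Des result was not tested.

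**Figure D5:**
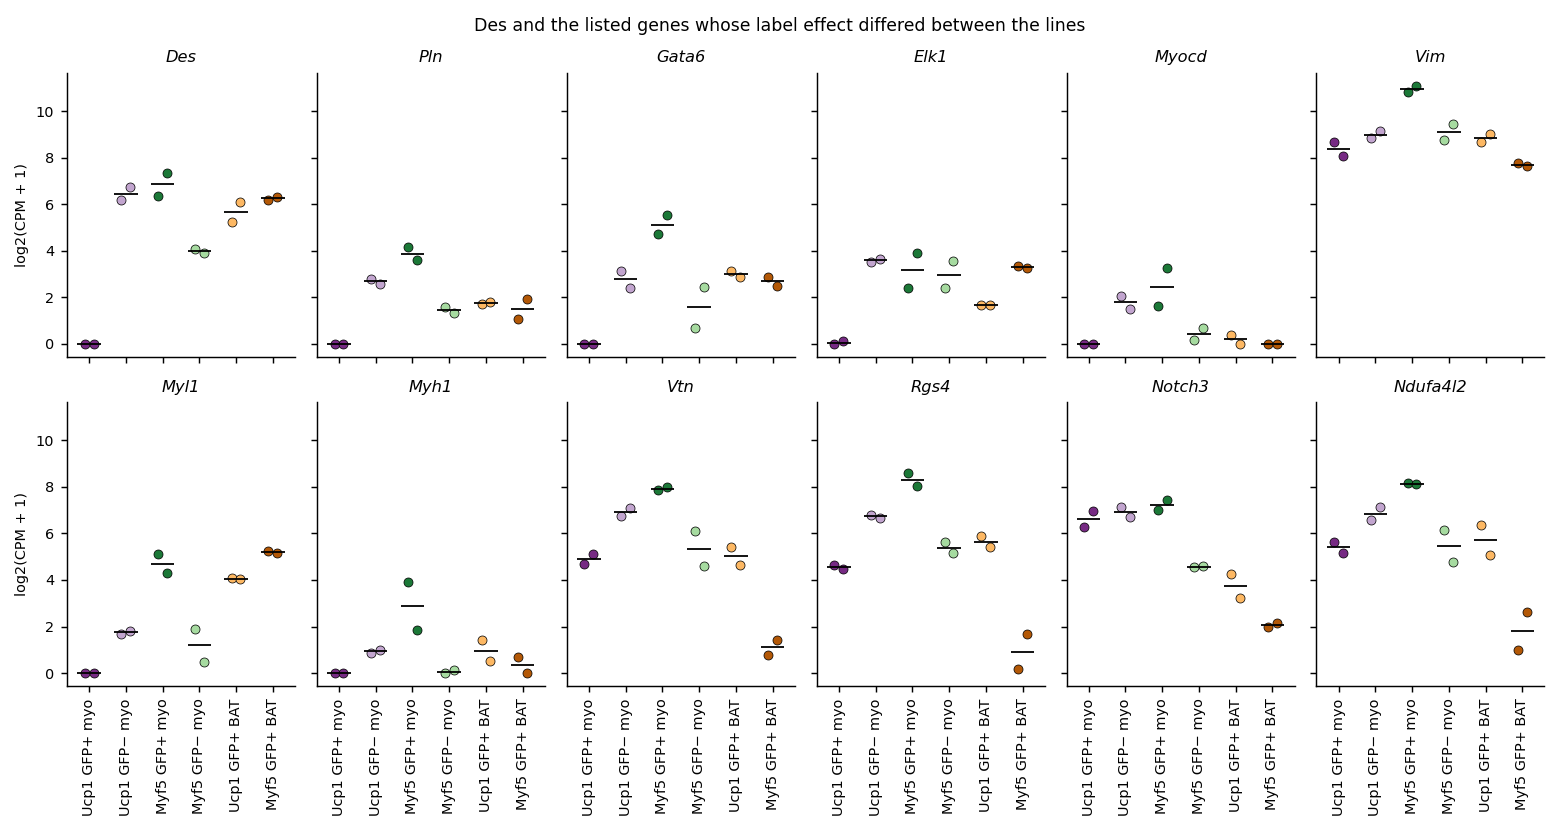
Each panel plots 1 gene as log2(CPM + 1), with a point per library and a line at the group mean, for Des and the 11 genes of the smooth muscle, serum response factor, non-muscle, striated and pericyte lists whose label effect differed between the lines. The fibroblast markers are not drawn. Des, Pln, Gata6, Myocd, Myl1 and Myh1 are at 0 in both Ucp1 GFP-positive myoepithelial libraries.

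The members did not move as 1 block across the 8 mammary libraries. Against the mean log2(CPM + 1) of the other members, Tagln correlated at r = 0.990, Mylk at 0.968, Tpm1 at 0.941, Tpm2 at 0.931 and Acta2 at 0.904, while Des (0.592) and Cald1 (0.544) were lowest. Over the 6 libraries other than Ucp1 GFP-positive, Tagln kept 0.947, whereas Cald1 was at −0.166 and Des at −0.585. These values describe libraries that share cells, group and depth. Outside the members, 8719 protein-coding genes averaging 10 CPM or more in the mammary libraries were set against the mean of the 10 members. The most alike were Hoxd9 (0.992 over 8 libraries and 0.990 over 6), Maea (0.984 and 0.924), Dcaf7 (0.981 and 0.919), Rab15 (0.973 and 0.966) and Vwa1 (0.972 and 0.970). Hoxd8, Thsd7a, Dnlz, Dmtn and Ckb followed at 0.965 to 0.969. Hoxd9, a homeobox gene, had 0.0368 and 0.922 CPM in Ucp1 GFP-positive, 56.7 and 76.8 CPM in Ucp1 GFP-negative, 11.6 and 22.1 CPM in Myf5 GFP-positive and 42.2 and 105 CPM in Myf5 GFP-negative libraries.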

How the data were processed

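For each library the authors deposited a table of raw counts by Ensembl gene. Per the submitters' processing notes, TopHat, HTSeq and DESeq2 were used with genome build mm10. Versions and the strand setting of the counting were not given in the sources used here. Without a stated strand setting, reads of Tagln, Cald1 and Des cannot be told apart from those of overlapping genes on the opposite strand. Per the labels, cDNA was amplified with SMART-Seq v4 before sequencing, and counts carry no molecular identifiers, so intervals and floors cover counting error only.

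The counts were joined into 38924 genes with GENCODE M21 symbols (37607 matched) in Python 3.11.15 with pandas 2.3.3 and numpy 2.4.6, and plotted with matplotlib 3.10.9. The test was edgeR 4.0.16 quasi-likelihood in R 4.3.3, with TMM factors, filterByExpr at a minimum count of 10 and Benjamini-Hochberg adjustment over 16953 genes at 0.05. A single fit over the 12 libraries had 1 mean for each group, and SE is the log2 fold change over the square root of F. The steps were tested on simulated data. A group with 0 counts in both libraries gives a bound from 3 counts over their pooled total. CPM per kb divides by exon length. Promoters are RefSeq entries matched by symbol for 7 of 10 members.

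The members and gene lists were chosen with earlier results of these data known. Named genes were all members, the called genes of each list (up to 4 per comparison) or, with none called, the 2 most abundant, and the 10 most alike. Lmod1, Klf4, Csrp1, Gata6 and Srf levels, Krt5, Ucp1, Actg1 and Tpm3 were described beside them, some after their values were seen. Alternatives were RLE factors, no filter, DESeq2 1.42.0, smaller sets of libraries or genes, a replicate block, and each replicate left out.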

Additional observations from a re-analysis of the deposited data

Results flagged for a closer look

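Des was the member whose label effect differed between the lines by the test of the difference itself (edgeR adjusted p = 0.00198). That test called 10.7% of all genes lower, so the call alone does not set the members apart from all genes. Des was at 0 counts in both Ucp1 GFP-positive myoepithelial libraries, against 71.3 and 104 CPM in Ucp1 GFP-negative ones. It had 81.5 and 163 CPM in Myf5 GFP-positive and 15.8 and 14.0 CPM in Myf5 GFP-negative ones. No setting of this test left out both of the empty Ucp1 GFP-positive libraries. The difference passed in all 15 settings run, the one reported included, at adjusted p of 2.27e-21 to 0.0219.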

How the results depend on the processing

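In the Ucp1 label comparison 2423 of all genes were called as reported, 2336 with RLE factors, 2150 unfiltered and 3465 on the compared groups. Leaving out mitochondrial and milk genes gave 2322. In the Myf5 label comparison the fit without the Ucp1 GFP-positive libraries called 232. Between the lines in brown adipocytes 223 were called, against 135 with RLE factors and 1486 with DESeq2. Without the Ucp1 GFP-positive libraries 929 were, and on the compared groups 755. Counts of members called at an adjusted p under 0.05 moved as follows, and the cause was not tested. In the Ucp1 label comparison (5 as reported), RLE factors, no filter on low counts, and leaving out mitochondrial and milk genes each gave 2, Tagln and Des; DESeq2 gave 7, leaving out 1 replicate gave 1 to 7, and the compared groups alone gave 5 that were partly other genes (Myh11 and Cnn1 called, Tpm1 and Tpm2 not). In the Myf5 label comparison (0), DESeq2 gave 2 and the fit without the Ucp1 GFP-positive libraries gave 1, and leaving out 1 replicate gave 0 to 0. The difference between label effects (1) gave 1 to 3 with 1 replicate left out. Ucp1 GFP-positive cells over Ucp1 brown adipocytes (6) gave 0 on the compared groups alone and 4 to 8 with 1 replicate left out. Between the lines, GFP-negative cells (0) gave 1 with DESeq2, and brown adipocytes (2) gave 0 with RLE factors, 6 with DESeq2, 6 without the Ucp1 GFP-positive libraries, 5 on the compared groups alone and 0 to 0 with 1 replicate left out. With Myf5 GFP-positive and with GFP-negative cells over brown adipocytes, 9 were called in each fit that left out 1 replicate.

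RLE factors shifted the median of all genes by 0.17 in the Ucp1 label comparison and by −0.24 in GFP-negative cells over brown adipocytes. Of 929 refits of single members, 820 kept direction and call, 33 gained a call, 48 lost it and 28 changed sign without a call. None changed sign with a call.

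Deviations of replicate 1 from its group mean were correlated over the tested genes between GFP-positive and GFP-negative cells. The values were 0.0686 in the Ucp1 line and 0.472 in the Myf5 line. With 2 libraries a group, replicate 2 mirrors replicate 1 and adds nothing to them. Whether same-numbered libraries came from the same animal is not stated. In each line 8 members in GFP-positive and 9 in GFP-negative cells were higher in replicate 2. Of the members that overlapped in the Myf5 line, Myh11 and Tpm1 were lower with GFP in each same-numbered pair, and Cald1 was not. With a replicate block 5 members were called in the Ucp1 label comparison (Acta2 and Myh11 in, Mylk and Tpm2 out), 0 in the Myf5 one, 1 in their difference, 5 in Ucp1 cells over brown adipocytes, 9 in both other comparisons with brown adipocytes and 0 between the lines in either cell group. Over all genes the block gave 1601 calls in the Ucp1 label comparison, 0 in the Myf5 one and 1191 in their difference. Against brown adipocytes it gave 3308 in Ucp1 GFP-positive, 2489 in Myf5 GFP-positive and 3008 in GFP-negative cells. Between the lines it gave 0 in either cell group. With 2 libraries a group, calls near the threshold depended on single libraries.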
